A study of Rattus norvegicus with 119 samples.

Results

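The potassium channel genes measured here are those whose symbol begins with Kcn, which covers the pore-forming subunits of potassium channels and most of their auxiliary subunits. A probe set was taken as a member where the array's probe-gene table gave it exactly 1 symbol and that symbol began with Kcn. This gave 85 probe sets for 83 genes, of 29214 probe sets on the array, of which 15310 carried 1 symbol. Kcnip1 and Kcnip2 each had 2 probe sets, and 1 further probe set with several symbols was not a member. By role the 85 probe sets were 14 pore subunits of voltage-gated Kv channels, 10 modifier Kv subunits, 3 KCNQ subunits, 8 of the EAG, ERG and ELK kind, 15 inward rectifiers, 11 tandem-pore channels, 6 calcium- or sodium-activated channels and 18 auxiliary subunits.

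Potassium channels let potassium leave or enter a cell and so set its resting potential, the shape and spacing of its action potentials, and how it answers inhibitory transmitters. In the hippocampus, A-type Kv4 channels in dendrites work with the calcium-binding KChIP proteins, Kv1 channels sit along axons, inward rectifiers opened by G proteins carry slow inhibition, and Kir4.1 in astrocytes takes up potassium released by firing neurons. The choroid plexus, a secretory epithelium that lies against the hippocampus in the ventricle, has channels of its own, among them Kir7.1.

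The samples were hippocampi of 40 Fischer, 40 Long Evans and 39 Sprague Dawley rats, male and female, and each animal had 1 array. Each strain and sex had a control group on control chow and 4 exposed groups, which received 250 or 750 ppm lead acetate in the food either perinatally or postnatally. Perinatal animals were exposed through dams that ate lead food from 10 days before mating until the litter was weaned, and postnatal animals from birth to postnatal day 45. All hippocampi were collected at postnatal day 55. The 30 groups held 4 animals each, apart from 3 Sprague Dawley male controls, which gives 23 controls, 48 animals at 250 ppm and 48 at 750 ppm. The labels do not name litters. An animal is therefore the unit of every test, and p-values measure only the spread between these animals, whether or not they shared a dam.

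Values are log2 intensities as deposited. Array medians lay between 7.36 and 7.57, and the hippocampal markers Slc17a7 (12.72 to 12.95), Camk2a (13.12 to 13.39) and Wfs1 (11.52 to 12.07) varied little between animals. On 8 arrays the X-linked genes Eif2s3, Ddx3x and Pbdc1 went against the labelled sex (called sex-mismatched here): 3 Long Evans controls and 5 Sprague Dawley animals, 1 of them a control, and none in Fischer. Every label ends in a number. Within each group the animals were divided into those with lower and those with upper numbers (59 and 60 animals), since arrays stood apart by this number. All results are given over both sets unless the set is named. Each run of successive numbers held animals of 1 strain only, and within a strain most treatments had runs of their own. Differences between strains or treatments therefore cannot be told apart from differences between runs. The lower and upper sets were made within groups and do not separate them.

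In Fischer rats the number sets differed for most probe sets of the array, and for potassium channel genes at a similar share (63.5% of members called). With limma and Benjamini-Hochberg adjustment over all probe sets (a call is an adjusted p under 0.05), 54 of the 85 member probe sets differed between the number sets there, 10 higher and 44 lower in the upper set, beside 60.9% of all probe sets. In Sprague Dawley 13 members differed, 7 higher and 6 lower, beside 18.9% of all. None was called in Long Evans, where 7 members had an unadjusted p under 0.05 in limma and 0.0993% of all probe sets were called. Kcnk9, a tandem-pore leak channel, ranged from 10.30 to 10.53 (median 10.41) in 20 Fischer animals with lower numbers and from 9.46 to 10.22 (median 9.98) in the 20 with upper numbers. These ranges did not overlap. Kcne5, an inhibitory auxiliary subunit, lay at 8.53 to 9.01 (median 8.78) and 8.12 to 8.51 (median 8.35), again without overlap. Kcnip2, which binds Kv4 channels, went the other way, from 9.17 to 9.68 (median 9.44) in the lower set to 9.56 to 9.83 (median 9.73) in the upper set. The differences were -0.46 ± 0.041 (SE) for Kcnk9, -0.43 ± 0.032 for Kcne5 and 0.29 ± 0.025 for Kcnip2, with adjusted p in limma from 2.87e-13 to 2.54e-11. Kcnip4 (0.22), Kcnk1 (0.22) and Kcnip2 were higher in the upper Fischer set, and lower in the upper Sprague Dawley set (-0.17, -0.16 and -0.13). In Fischer rats 8 of 9 astrocyte markers were higher in the upper set and all 7 probe sets of a meninges list were lower. The part of these cell types in the potassium channel differences was not tested. In bulk tissue, fewer cells of a type and less RNA in each cell cannot be told apart.

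Across the 30 group means, Kcnip1 had the widest range of all members relative to the spread within groups. Kcnip1 encodes KChIP1, a calcium-binding subunit of Kv4 channels found mainly in inhibitory interneurons. Its mean on probe set 10741956 ran from 9.46 in Fischer males with perinatal 750 ppm to 10.34 in Sprague Dawley females with postnatal 250 ppm, 7.77 times the within-group SD. Its other probe set, 10940482, came next at 5.88 times, then Kcnh4 at 5.03, Kcnk4 and Kcnk2 at 4.98 and Kcna6 at 4.70. At the other end stood Kcne3, at 1.59. The median within-group SD of members was 0.134 in Fischer, 0.114 in Long Evans and 0.106 in Sprague Dawley, beside 0.152, 0.131 and 0.128 over all probe sets.

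**Figure D1:**
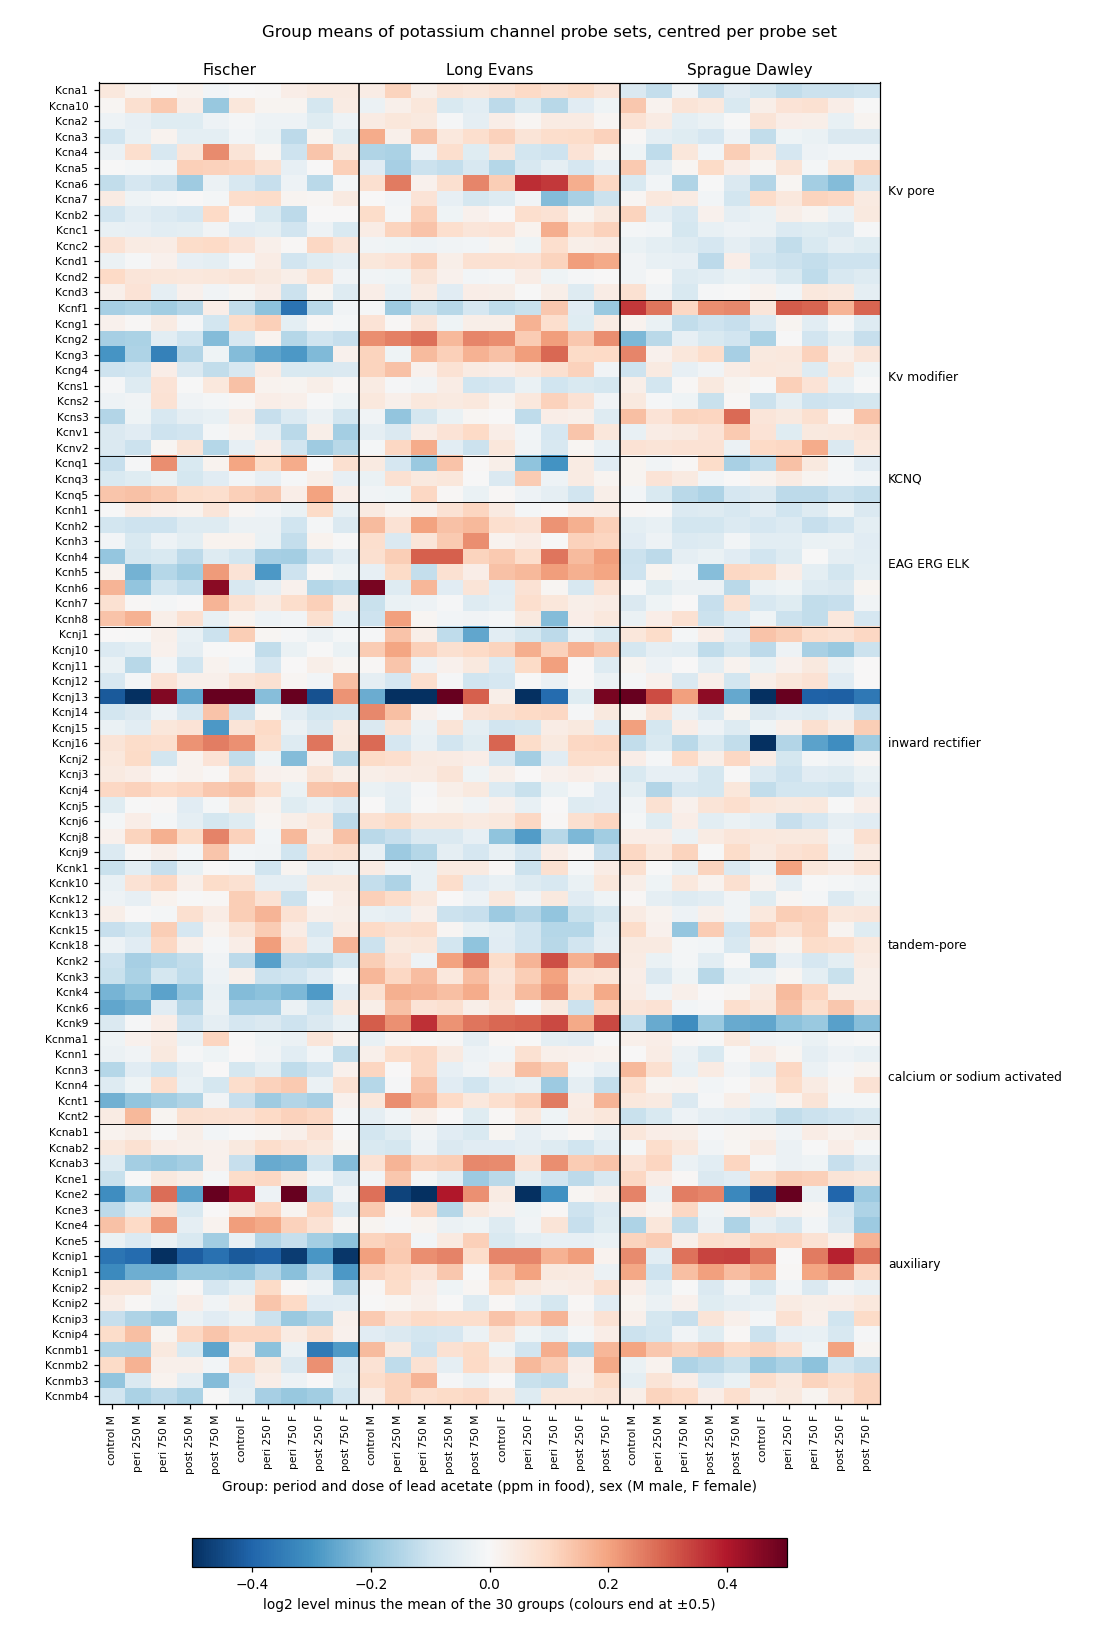
Colour map of the mean log2 level of each of the 85 member probe sets (rows, by family) in the 30 groups (columns, by strain, sex, period and dose), each centred on its own mean over the groups. Colours end at ±0.5 log2 units. Kcnip1 is low across all Fischer groups, Kcnk9 is high across all Long Evans groups, and Kcnj13 and Kcne2 vary between groups with no order by strain.

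RefSeq lists 2 start sites of Kcnip1 with a promoter entry in rat assembly GRCr8, both on the minus strand of chromosome 10. The 250 bases before each are shown because Kcnip1 is the member that differed most between strains, and they are set beside those of Kcnj13, the member that varied most between animals. The windows are chr10:18940810-18941059 and chr10:19093026-19093275 for Kcnip1 and chr9:95518987-95519236, minus strand, for Kcnj13. Each is written 5′ to 3′ on the gene's strand, with CG dinucleotides in capitals.
Kcnip1, first window: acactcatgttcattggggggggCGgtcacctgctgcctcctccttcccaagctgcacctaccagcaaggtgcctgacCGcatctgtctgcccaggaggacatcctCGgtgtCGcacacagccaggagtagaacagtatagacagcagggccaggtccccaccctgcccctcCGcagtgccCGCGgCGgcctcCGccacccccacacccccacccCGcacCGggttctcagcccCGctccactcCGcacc
Kcnip1, second window: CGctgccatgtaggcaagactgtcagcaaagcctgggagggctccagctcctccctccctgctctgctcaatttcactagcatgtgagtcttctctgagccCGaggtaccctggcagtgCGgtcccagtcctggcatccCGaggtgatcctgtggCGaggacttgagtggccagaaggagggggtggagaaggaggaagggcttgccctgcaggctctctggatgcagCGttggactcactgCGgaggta
Kcnj13: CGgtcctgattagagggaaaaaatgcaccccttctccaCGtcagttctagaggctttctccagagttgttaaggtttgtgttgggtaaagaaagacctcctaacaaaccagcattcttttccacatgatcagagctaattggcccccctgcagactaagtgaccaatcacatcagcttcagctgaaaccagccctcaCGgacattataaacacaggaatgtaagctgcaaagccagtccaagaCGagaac
The first Kcnip1 window held 13 CG dinucleotides and was 67.6% G or C, the second held 7 and was 61.2%, and that of Kcnj13 held 4 and was 46.8%. Over all 33469 RefSeq promoter entries the median was 5, and 70.6%, 54.8% and 37.4% of entries had fewer CG than these 3 windows. Promoter entries matched 58 of the 83 member genes. The letters TAATCC, the core that the choroid plexus factor OTX2 binds, were searched on both strands in windows of the same length. They occurred in 6.34% of all entries and in 3 of 64 member entries (4.69%, those of Kcng4, Kcnj9 and Kcnk4), and not in the windows shown. A match is a description of letters only. The deposited data do not tell which Kcnip1 start site each probe set reads.

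Kcnip1 was higher in Long Evans and Sprague Dawley than in Fischer hippocampus, in control and in exposed animals alike. On probe set 10741956 the 8 Fischer controls lay at 9.36 to 9.74 (median 9.56), the 8 Long Evans controls at 10.11 to 10.23 (median 10.19) and the 7 Sprague Dawley controls at 10.11 to 10.32 (median 10.22). No Fischer control reached a control of another strain, while Long Evans and Sprague Dawley controls overlapped. Over all animals Fischer ran from 9.28 to 9.80 (median 9.55), Long Evans from 9.80 to 10.32 (median 10.17) and Sprague Dawley from 9.83 to 10.48 (median 10.22). The top of Fischer met the bottom of Long Evans, and Fischer did not reach Sprague Dawley. In controls the difference from Fischer was 0.62 ± 0.057 in Long Evans and 0.65 ± 0.060 in Sprague Dawley (adjusted p in limma 3.15e-15 and 4.07e-15). In exposed animals it was 0.59 ± 0.029 and 0.65 ± 0.029. The second probe set, 10940482, lay at 5.84 to 6.29 (median 6.05), 6.05 to 6.50 (median 6.37) and 6.09 to 6.62 (median 6.43) over all animals of Fischer, Long Evans and Sprague Dawley. It is dim, with a mean of 6.27, under the array medians and not above the 40th percentile of mean level. Its control differences were 0.38 ± 0.048 and 0.45 ± 0.050 (adjusted p in limma 8.12e-10 and 1.81e-11). Within each number set the direction was the same: on 10741956, exposed Long Evans animals were 0.49 above Fischer in the lower and 0.68 in the upper set, and Sprague Dawley animals 0.55 and 0.74.

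**Figure D2:**
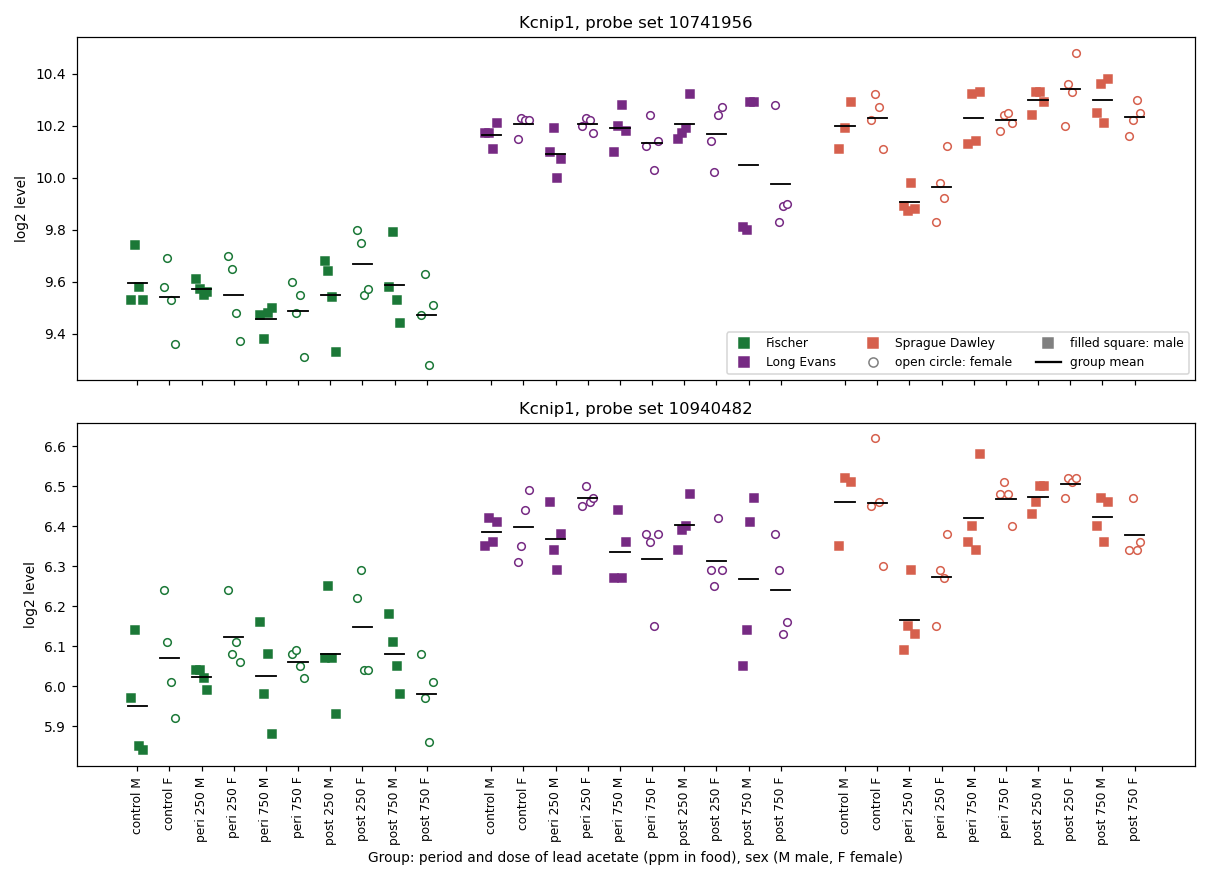
Log2 level of Kcnip1 in each animal (points; filled squares male, open circles female) by group, with group means as bars, for its 2 probe sets. Fischer animals lie between 9.28 and 9.80 on probe set 10741956. All 8 Sprague Dawley animals with perinatal 250 ppm (9.83 to 10.12) lie low within their strain.

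Kcnip1 overlaps Kcnmb1 in the RefSeq annotation. Kcnmb1, a subunit of calcium-activated BK channels, was not called between control strains (0.13 in Long Evans and 0.21 in Sprague Dawley against Fischer, adjusted p in limma 0.56 and 0.416). In exposed animals it was 0.19 and 0.26 above Fischer (adjusted p in limma 0.0162 and 0.00223). Of 10 interneuron markers, 2 were higher in Long Evans and 2 lower in Sprague Dawley controls than in Fischer controls, beside 25.1% and 10.5% of all probe sets called. Their mean level ran from 9.71 to 10.06 in Fischer, 9.87 to 10.19 in Long Evans and 9.81 to 10.01 in Sprague Dawley animals. The part of interneurons in the strain differences of Kcnip1 was not tested.

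Between Long Evans and Fischer controls, 26 of 85 members were called, 18 higher and 8 lower in Long Evans (30.6%, beside 25.1% of all probe sets). Between Sprague Dawley and Fischer controls 16 were called, 6 higher and 10 lower (18.8%, beside 10.5%). Between Sprague Dawley and Long Evans controls 14 were called, 3 higher and 11 lower (16.5%, beside 24.5%). In exposed animals, with 32 a strain, 56 members (35 higher, 21 lower; 65.9%) were called for Long Evans against Fischer beside 57.7% of all probe sets. For Sprague Dawley against Fischer 36 (19 higher, 17 lower; 42.4%) were called beside 35.2%, and for Sprague Dawley against Long Evans 46 (13 higher, 33 lower; 54.1%) beside 57.8%. Median differences in controls stayed small, at 0.043, 0.019 and -0.015 for members and -0.012, 0.007 and 0.021 for all probe sets. Of the 26, 16 and 14 called in controls, 25, 16 and 14 were called with the same sign in exposed animals, and 15, 8 and 13 in the exposed animals of each number set taken alone. The share of all probe sets that kept a call in this way is not given here, so these counts do not set the members apart. The strain pairs share animals, and so are not independent of each other. Without the 8 arrays that went against their sex label, the control counts were 17 for Long Evans against Fischer and 6 for Sprague Dawley against Long Evans. In the lower number set alone the first was 11, and in the upper set alone the second was 6. These fits hold fewer animals, and their shares of all probe sets called are not given here.

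**Figure D3:**
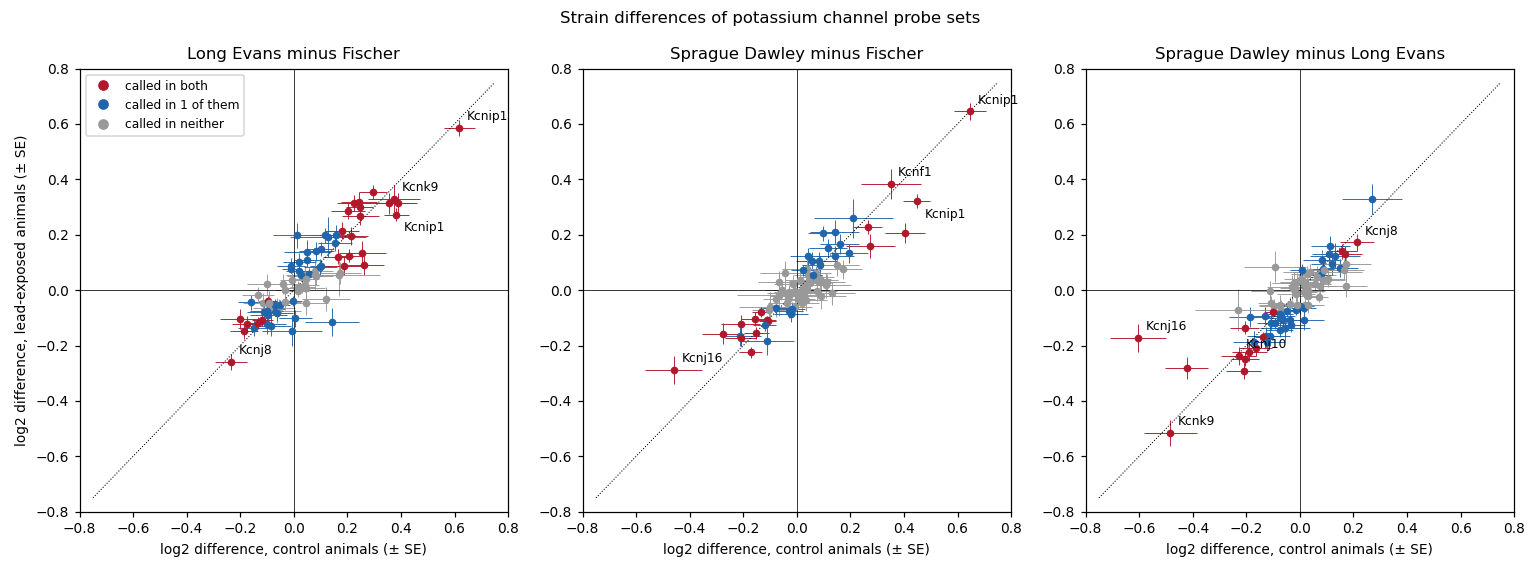
Log2 difference between strains in control animals (x axis) and in lead-exposed animals (y axis) for the member probe sets, with SE bars; Kcnj13 and Kcne2, whose SE is larger, are left out. Red points were called in both, blue in 1, grey in neither, and the dotted line marks equal differences. Kcnip1 lies farthest from 0 in both comparisons with Fischer, and Kcnj16 and Kcnk9 in Sprague Dawley minus Long Evans.

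Among the modifier Kv subunits, which alter other Kv channels and form none by themselves, 3 of 10 were higher in Long Evans and 2 in Sprague Dawley than in Fischer controls, and none was lower. In these 2 pairs 25.1% and 10.5% of all probe sets were called. Counts by family or gene list, here and below, are descriptions and were not tested against these shares. Kcng3 lay at 8.04 to 8.38 (median 8.16) in Fischer controls, 8.46 to 8.70 (median 8.61) in Long Evans and 8.44 to 8.75 (median 8.57) in Sprague Dawley. Fischer controls did not overlap either strain. The differences were 0.39 ± 0.072 and 0.40 ± 0.075 (adjusted p in limma 1.68e-05 and 4.08e-05). In exposed animals Kcng3 was 0.32 and 0.21 above Fischer, and in their lower number set 0.18 and 0.10, the last not called (adjusted p in limma 0.0635). Kcng2 was high in Long Evans only, with controls at 10.06 to 10.26 (median 10.22) against 9.67 to 10.01 (median 9.79) in Fischer and 9.65 to 9.95 (median 9.73) in Sprague Dawley. It was 0.36 ± 0.076 above Fischer, and Sprague Dawley was -0.42 ± 0.079 from Long Evans. Kcnf1 was 0.35 ± 0.112 higher in Sprague Dawley than in Fischer controls (adjusted p in limma 0.0292), with medians of 9.11 and 8.80 and overlapping ranges; this call was lost in 5 of 15 fits that left out 1 animal, with adjusted p up to 0.106.

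Of the 11 tandem-pore channels, which carry background potassium current, 4 were higher and 1 lower in Long Evans than in Fischer controls, and 2 were higher in Sprague Dawley. In these 2 pairs 25.1% and 10.5% of all probe sets were called. The mechanosensitive Kcnk4 lay at 9.70 to 10.00 (median 9.83) in Fischer, 9.98 to 10.21 (median 10.11) in Long Evans and 10.05 to 10.11 (median 10.09) in Sprague Dawley controls. Only the top of Fischer met the bottom of Long Evans. The differences from Fischer were 0.30 and 0.26 (adjusted p in limma 4.56e-06 and 0.000196). The acid-sensitive Kcnk9 lay at 10.39 to 10.61 (median 10.57) in Long Evans controls, 9.81 to 10.21 (median 10.09) in Sprague Dawley and 9.72 to 10.49 (median 10.18) in Fischer. Long Evans and Sprague Dawley did not overlap. Sprague Dawley was -0.48 ± 0.099 from Long Evans in controls and -0.52 ± 0.048 in exposed animals (adjusted p in limma 0.000112 and 1.85e-16), and -0.47 and -0.56 within the lower and upper number sets of exposed animals. Between Long Evans and Fischer controls Kcnk9 differed by 0.37 ± 0.096, but the values by number set were unlike. Controls differed by 0.63 in the upper set and by 0.12 in the lower, the last not called (adjusted p in limma 0.378). Exposed animals differed by 0.60 in the upper set and by 0.061 in the lower (adjusted p in limma 3.93e-13 and 0.234). Kcnk13 was -0.19 lower in Long Evans than in Fischer and 0.16 higher in Sprague Dawley than in Long Evans controls; the second call was lost in 6 of 15 fits without 1 animal, and with the 8 sex-mismatched arrays left out (adjusted p in limma 0.318). Kcnk6 was called 0.28 higher in Sprague Dawley than in Fischer controls, but in the lower number set of exposed animals it differed by -0.017. That call in controls was lost in 9 of 15 fits without 1 animal (adjusted p in limma up to 0.149).

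Inward rectifiers pass current more easily into than out of cells. Of 15, 1 was higher and 2 lower in Long Evans than in Fischer controls, 3 were lower in Sprague Dawley than in Fischer, and 1 was higher and 3 lower in Sprague Dawley than in Long Evans. The shares of all probe sets called in these pairs were 25.1%, 10.5% and 24.5%. Kcnj16 encodes Kir5.1, which pairs with Kir4.1 in glia. It lay at 8.05 to 8.46 (median 8.19) in Fischer, 8.15 to 8.74 (median 8.32) in Long Evans and 7.02 to 8.16 (median 7.92) in Sprague Dawley controls. The low values were female: Sprague Dawley female controls were at 8.16, 7.34, 7.73 and 7.02, and males at 7.95, 7.92 and 7.98. The array at 7.34 was sex-mismatched. Sprague Dawley differed by -0.46 ± 0.105 from Fischer and -0.60 ± 0.105 from Long Evans in controls (adjusted p in limma 0.00105 and 5.1e-06). In exposed animals the differences were -0.29 ± 0.050 and -0.17 ± 0.050. In the lower number set alone the first control difference was -0.41 and the second exposed difference -0.090, neither called (adjusted p in limma 0.106 and 0.349). Kcnj10, Kir4.1 itself, lay at 10.98 to 11.16 (median 11.08) in Long Evans, 10.76 to 10.92 (median 10.85) in Sprague Dawley and 10.68 to 11.15 (median 10.95) in Fischer controls. Long Evans and Sprague Dawley did not overlap. Sprague Dawley was -0.23 ± 0.066 from Long Evans in controls and -0.24 ± 0.032 in exposed animals (adjusted p in limma 0.00683 and 4.84e-10). With the 8 sex-mismatched arrays left out the control difference was -0.22 (adjusted p in limma 0.0553). Astrocyte markers moved the other way: 4 of 9 were higher and none lower in Sprague Dawley than in Long Evans controls (median 0.15). The mean astrocyte level ran from 11.26 to 11.48 in Long Evans and 11.41 to 11.57 in Sprague Dawley animals. The part of cell make-up in the Kcnj10 and Kcnj16 differences was not tested.

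Kcnj8 encodes Kir6.1, the pore of ATP-sensitive channels of pericytes and smooth muscle. It was lower in Long Evans than in both other strains. Controls lay at 7.32 to 7.69 (median 7.53) in Long Evans, 7.53 to 7.93 (median 7.71) in Fischer and 7.55 to 7.87 (median 7.73) in Sprague Dawley, and the ranges overlapped. Long Evans differed by -0.23 ± 0.061 from Fischer controls and by -0.26 ± 0.030 in exposed animals (adjusted p in limma 0.0022 and 4.31e-12). Sprague Dawley was 0.21 ± 0.063 above Long Evans controls and 0.17 ± 0.030 in exposed animals. This control call was lost without Sprague Dawley male control 1 (adjusted p in limma 0.0633), and with the 8 sex-mismatched arrays left out (0.19, adjusted p in limma 0.0722). Abcc9, the SUR2 subunit that joins Kir6.1, followed it on 1 of its 2 probe sets, by -0.31 in Long Evans against Fischer controls and 0.44 in Sprague Dawley against Long Evans controls (adjusted p in limma 2.18e-06 and 3.14e-10). The other probe set was not called (-0.003 and 0.020). Markers of vessel and mural cells moved as well: 6 of 9 were lower in Long Evans than in Fischer controls (median -0.20), and 5 of 9 were higher in Sprague Dawley than in Long Evans (median 0.23), beside 25.1% and 24.5% of all probe sets called. Their mean level ran from 8.70 to 9.14 in Long Evans, 8.92 to 9.35 in Fischer and 8.90 to 9.42 in Sprague Dawley animals. Their part in the Kcnj8 difference was not tested. Kcnj4, Kir2.3 of neurons, differed from Fischer controls by -0.18 in Long Evans and -0.21 in Sprague Dawley. These calls were made in the upper number set (-0.26 and -0.28) and not in the lower (-0.093 and -0.14, adjusted p in limma 0.399 and 0.249). Exposed animals of the lower set differed by -0.044 and -0.051, neither called (adjusted p in limma 0.293 and 0.219).

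Of the 14 Kv pore subunits, 2 were higher and 1 lower in Long Evans than in Fischer controls, 2 were lower in Sprague Dawley than in Fischer, and 1 was higher and 3 lower in Sprague Dawley than in Long Evans. The shares of all probe sets called in these pairs were 25.1%, 10.5% and 24.5%. Kcna1, the axonal Kv1.1, lay at 11.16 to 11.32 (median 11.26) in Sprague Dawley, 11.34 to 11.45 (median 11.40) in Long Evans and 11.28 to 11.46 (median 11.36) in Fischer controls. Sprague Dawley and Long Evans did not overlap, and differed by -0.14 ± 0.032 (adjusted p in limma 0.000816). Its neighbour Kcna6 was -0.21 lower in Sprague Dawley than in Long Evans controls and -0.29 in exposed animals; the control call was lost without Sprague Dawley male control 3 (adjusted p in limma 0.0706) and with the 8 sex-mismatched arrays left out (-0.12, adjusted p in limma 0.301). The next gene of that cluster, Kcna5, went the other way, 0.17 higher in Sprague Dawley controls, a call lost in 12 of 15 fits without 1 animal (adjusted p in limma up to 0.0994). Kcnd2, the dendritic Kv4.2 to which KChIP proteins bind, lay at 12.08 to 12.23 (median 12.17) in Fischer, 12.03 to 12.12 (median 12.07) in Long Evans and 11.93 to 12.18 (median 12.07) in Sprague Dawley controls. It was -0.096 and -0.11 from Fischer in controls (adjusted p in limma 0.0259 and 0.0264) and -0.038 and -0.11 in exposed animals. In the upper number set of exposed animals the Kcnd2 differences were 0.001 and -0.047, neither called (adjusted p in limma 0.972 and 0.0625). Kcna2, Kcnc1, Kcnq3, Kcnk1 and Kcnma1 were called in no control pair, with differences between -0.076 and 0.10. In exposed animals each of these 5 was called in 1 or 2 of the 3 pairs, the largest being 0.15 for Kcnc1, Kv3.1 of fast-spiking neurons, in Long Evans against Fischer.

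Kcnq5, an M-current subunit, was lower outside Fischer, by -0.13 ± 0.041 in Long Evans and -0.17 ± 0.043 in Sprague Dawley controls, with medians of 10.91, 10.77 and 10.70 in Fischer, Long Evans and Sprague Dawley. The Long Evans call was lost with the 8 sex-mismatched arrays left out (-0.11, adjusted p in limma 0.086). Of 8 EAG, ERG and ELK subunits, 2 were higher and 1 lower in Long Evans than in Fischer controls, and 2 were lower in Sprague Dawley than in Long Evans. For this and the next family counts, 25.1% of all probe sets were called between Long Evans and Fischer controls. Between Sprague Dawley and Fischer controls 10.5% were called, and between Sprague Dawley and Long Evans controls 24.5%. The ELK channel Kcnh4 and the ERG channel Kcnh2, picked out after their values were seen, were 0.25 and 0.18 higher in Long Evans than in Fischer controls, and -0.20 and -0.19 in Sprague Dawley against Long Evans. By number set, the Long Evans and Fischer difference of Kcnh2 was 0.043 in lower and 0.32 in upper controls, and 0.067 and 0.36 in exposed animals. Among the 6 calcium- or sodium-activated channels 2 were higher in Long Evans and 1 lower in Sprague Dawley than in Fischer controls: the sodium-activated Kcnt1 (0.25) and the SK channel Kcnn3 (0.19), and Kcnt2 (-0.15). In exposed animals Kcnn3 was 0.089 above Fischer in Long Evans, with -0.046 in the lower number set (adjusted p in limma 0.328) and 0.22 in the upper. Of the 18 auxiliary probe sets 4 were higher and 2 lower in Long Evans than in Fischer, 2 were higher and 2 lower in Sprague Dawley, and none was called between Sprague Dawley and Long Evans, where limma called 0 of 18 (3 at an unadjusted p under 0.05). Kcne4, an inhibitory subunit, was -0.20 ± 0.075 lower in Long Evans and -0.28 ± 0.078 lower in Sprague Dawley than in Fischer controls; leaving out 1 animal ended the first call in 8 of 16 fits and the second in 2 of 15. With the 8 sex-mismatched arrays left out the first was not called (adjusted p in limma 0.0894). In exposed animals Kcne4 differed by -0.10 and -0.16, and in their upper number set Sprague Dawley differed by -0.017 (adjusted p in limma 0.79). Kcnip4 was -0.21 lower in Sprague Dawley than in Fischer controls (adjusted p in limma 0.0479), a call lost in 11 of 15 such fits. In the lower number set of exposed animals Kcnip4 differed by 0.073, the other way.

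Other genes that act with potassium channels were counted from fixed lists. These counts stand beside 25.1% of all probe sets called for Long Evans against Fischer controls, 10.5% for Sprague Dawley against Fischer and 24.5% for Sprague Dawley against Long Evans. Of 11 probe sets for Kv partners and anchors, 3 were higher and 3 lower in Long Evans than in Fischer controls, among them Lgi1 (-0.24) and Dlg4 (0.20). In Sprague Dawley 1 was higher than in Fischer. Of 10 probe sets for partners of G protein-gated channels, 2 were higher and 1 lower in Long Evans than in Fischer. The GABA-B receptor subunit Gabbr1 was 0.17 above Fischer in Long Evans, and -0.16 in Sprague Dawley against Long Evans. For HCN channels and their partners limma called 0 of 5 probe sets in each of the 3 control pairs, with 1 at an unadjusted p under 0.05 in Sprague Dawley against Long Evans. Among cell type markers, microglia genes differed most often between Sprague Dawley and Long Evans controls, where 6 of 9 were higher and 1 lower. Against Fischer controls, 6 of 9 astrocyte and 4 of 9 microglia markers were lower in Long Evans, and none of the 9 astrocyte markers was called in Sprague Dawley (2 at an unadjusted p under 0.05 in limma). The part of these shifts in the potassium channel differences was not tested.

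Lead exposure called no potassium channel gene against the controls of the same strain and sex. There were 24 such comparisons, each 4 exposed animals against 4 controls (3 for Sprague Dawley males), and those of a strain and sex share their controls. In limma, 0 of 680 member tests were called in each strain. At an unadjusted p under 0.05 there were 17 in Fischer, 39 in Long Evans and 25 in Sprague Dawley (2.50%, 5.74% and 3.68%, beside 3.0%, 5.97% and 3.17% of all tests). The shares of all tests that were called were 0.00214%, 0.0424% and 0.00813%. The smallest adjusted p in the 24 comparisons was 0.151.

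**Figure D4:**
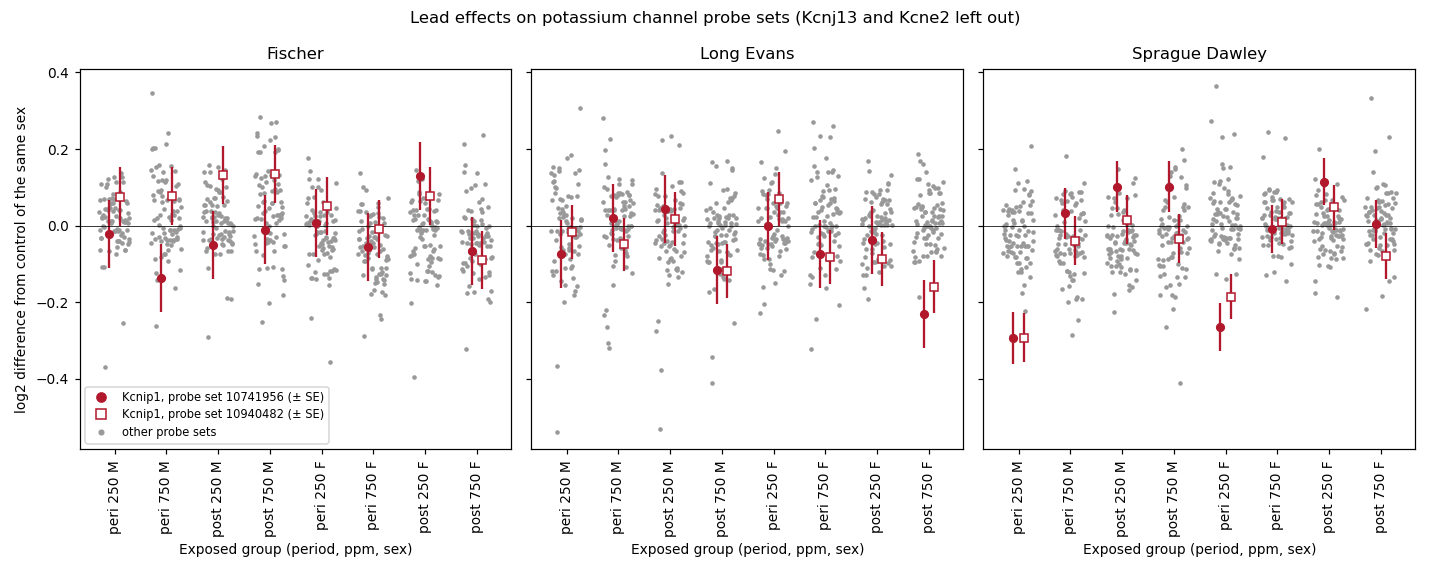
Log2 difference of each exposed group from the control group of its strain and sex for the member probe sets (points; Kcnj13 and Kcne2 left out), with Kcnip1 in red with SE bars for its 2 probe sets. Most points lie near 0, and both Kcnip1 probe sets are low in Sprague Dawley animals with perinatal 250 ppm, by -0.29 in males.

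Averaged over the 4 exposed groups and both sexes, the lead effect called 0 of 255 member tests in limma (11 at an unadjusted p under 0.05), beside 0.0764% of all probe sets. The smallest adjusted p were those of Kcnj16 (-0.28 ± 0.074, adjusted p in limma 0.121) and Kcnq3, an M-current subunit (0.093 ± 0.025, adjusted p in limma 0.14), both in Long Evans. Group means of Kcnj16 in Long Evans were 8.36 in male and 8.37 in female controls, and 7.98 to 8.18 in the 8 exposed groups. Between 750 and 250 ppm, limma called 0 of 255 member tests (28 at an unadjusted p under 0.05; 0.0434% of all), with a smallest adjusted p of 0.413. The lead effect did not differ between the sexes for any member by limma's test (0 of 255, with 11 at an unadjusted p under 0.05; 0.00114% of all), and nor did male and female controls (0 of 255, with 11 at an unadjusted p under 0.05; 0.00114% of all). Between strains, the mean lead effect differed for 0 of 255 member tests in limma (9 at an unadjusted p under 0.05; 0.0730% of all). The nearest was Kcnj16, whose effect was 0.43 ± 0.116 higher in Sprague Dawley than in Long Evans (adjusted p in limma 0.227). Without Sprague Dawley female control 1 that adjusted p was 0.0206.

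Single exposed groups held a few values apart from their controls without a call. Kcng3 in Sprague Dawley males with postnatal 750 ppm lay at 8.38, 8.10, 8.24 and 8.40, all below the controls at 8.75, 8.68 and 8.64, a difference of -0.41 ± 0.086 (adjusted p in limma 0.156). The array at 8.10 was sex-mismatched, and with such arrays left out Kcng3 differed by -0.35 and was not called. Kcnj11, the Kir6.2 pore of neuronal ATP-sensitive channels, lay at 7.89, 7.90, 7.98 and 7.93 in Long Evans females with perinatal 750 ppm and at 7.52, 7.57, 7.92 and 7.59 in their controls. The difference was 0.27 ± 0.073 (adjusted p in limma 0.221). Without the control at 7.92, whose array went against its sex label, the adjusted p in limma was 0.0207. With all 8 sex-mismatched arrays left out, Kcnj11 was not called. Kcnh8, an ELK channel, lay at 7.03, 7.02, 6.84 and 7.02 in Long Evans males with perinatal 250 ppm and 6.66, 6.72, 6.55 and 6.74 in controls, a difference of 0.31 ± 0.081 (adjusted p in limma 0.229).

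The period of exposure called 1 member, Kcnip1 in Sprague Dawley. Over both doses and sexes, postnatal animals were 0.21 ± 0.031 above perinatal animals on probe set 10741956 (adjusted p in limma 0.00109, beside 0.0411% of all probe sets called). Leaving out each animal in turn kept it between 0.20 and 0.23, with adjusted p from 0.000444 to 0.00335. The other probe set differed by 0.11 ± 0.030 and was not called (adjusted p in limma 0.403). In Fischer and Long Evans 0 members were called for the period by limma (12 and 14 at an unadjusted p under 0.05; 0.0342% of all probe sets).

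This Kcnip1 difference lay in the 8 Sprague Dawley animals with perinatal 250 ppm. Males of that group lay at 9.89, 9.87, 9.98 and 9.88 and females at 9.83, 9.98, 9.92 and 10.12 on probe set 10741956. Male controls lay at 10.11, 10.19 and 10.29, female controls at 10.22, 10.32, 10.27 and 10.11, and no animal of any other Sprague Dawley group was under 10.11. Only 1 female of the perinatal 250 ppm group, at 10.12, reached the range of the other groups. Postnatal 250 ppm males lay at 10.24, 10.33, 10.33 and 10.29 and females at 10.20, 10.36, 10.33 and 10.48, with no overlap. The comparisons within 1 dose or within 1 period that follow were added after the data were seen, so their p-values are no independent test of this low group. At 250 ppm, postnatal animals were 0.39 ± 0.044 above perinatal animals on this probe set and 0.27 ± 0.042 on the other (adjusted p in limma 1.14e-05 and 0.00163; both members called, beside 0.0993% of all probe sets). Among perinatal animals, those with 750 ppm were 0.29 ± 0.044 and 0.22 ± 0.042 above those with 250 ppm (adjusted p in limma 0.00236 and 0.0253; 0.0342% of all called). The second of these was lost in 8 of 16 fits that left out 1 animal, with adjusted p up to 0.105. At 750 ppm the periods differed by 0.042 and among postnatal animals the doses by -0.055, and limma called 0 members in either (1 and 7 at an unadjusted p under 0.05; 0.00171% of all probe sets in these 2 comparisons). Against controls, the perinatal 250 ppm animals were -0.29 ± 0.067 in males and -0.27 ± 0.062 in females (adjusted p in limma 0.176 and 0.636). The low level of this group was thus called against single other exposed groups only in comparisons added after the data were seen. It was not called in the planned comparisons with controls. With array weights the males were called against controls (adjusted p in limma 0.0264). On the second probe set this group lay at 6.09, 6.15, 6.29 and 6.13 in males and 6.15, 6.29, 6.27 and 6.38 in females. The 8 animals carried successive numbers in their labels, as did the males and females of each other exposed Sprague Dawley treatment, and whether animals shared a litter was not tested.

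The mean of the interneuron markers was 9.94 in both sexes of the perinatal 250 ppm group and 9.90 to 9.94 in the other Sprague Dawley groups. The choroid plexus markers had means of 9.70 in the females, the highest of the Sprague Dawley groups, and 8.85 in the males; the other Sprague Dawley groups had means of 8.11 to 9.10. Against female controls 5 of the 13 choroid plexus probe sets had an unadjusted p under 0.05 in the perinatal 250 ppm females (median 1.56), and limma called none. Oligodendrocyte markers had their highest Sprague Dawley means in these groups, 11.57 in females and 11.54 in males, against 11.39 and 11.45 with postnatal 250 ppm. At 250 ppm 5 of 8 oligodendrocyte probe sets had an unadjusted p under 0.05 between the periods (median -0.14, postnatal minus perinatal), and none was called by limma. The part of interneurons and of oligodendrocytes in the Kcnip1 difference was not tested. With the choroid plexus level as a covariate the period difference was 0.20 (adjusted p in limma 0.00441).

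In Long Evans, Kcnip1 was split within the postnatal 750 ppm groups. Females lay at 10.28, 9.83, 9.89 and 9.90 and males at 9.81, 9.80, 10.29 and 10.29, while all other Long Evans animals were between 10.00 and 10.32. Within these groups the same 5 animals were the lowest on the second probe set, at 6.29, 6.13 and 6.16 in females and 6.05 and 6.14 in males, against 6.38, 6.41 and 6.47 in the other 3. These groups differed from controls by -0.23 in females and -0.12 in males, and were not called (adjusted p in limma 1 and 0.691). The period difference of Kcnip1 was 0.27 ± 0.057 higher in Sprague Dawley than in Long Evans (adjusted p in limma 0.0182), the 1 member called in that comparison, beside 0.0753% of all probe sets. That comparison was added after the data were seen. Choroid plexus markers moved in the same comparison: 13 of 13 probe sets had an unadjusted p under 0.05 (median -1.95), as had 13 of 13 for the period in Long Evans (median 1.29, higher in postnatal animals), and limma called none. With the choroid plexus covariate the Kcnip1 difference was 0.23 (adjusted p in limma 0.221), and in the upper number set alone 0.18 (adjusted p in limma 0.635).

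Kcnj13, Kcne2 and Kcnq1 varied between animals with the level of choroid plexus markers. Kcnj13 encodes Kir7.1, the inward rectifier of choroid plexus epithelium, and Kcne2 and Kcnq1 encode subunits that form a channel there. Kcnj13 ran from 6.21 to 12.10 over all animals, with a within-group SD of 1.79 in Fischer, 1.89 in Long Evans and 1.62 in Sprague Dawley. Kcne2 ran from 6.52 to 9.46 and Kcnq1 from 6.21 to 7.42. The mean of 13 choroid plexus marker probe sets, Ttr among them and no potassium channel gene, ran from 6.90 to 10.41 in Fischer, 6.89 to 10.52 in Long Evans and 7.02 to 10.39 in Sprague Dawley. High and low animals occurred in control and in exposed groups, and limma called none of the 13 between control strains (0 at an unadjusted p under 0.05). Between the exposure periods of Long Evans all 13 had an unadjusted p under 0.05.

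With group means fitted, Kcnj13 rose by 1.55 ± 0.062 in Fischer, 1.46 ± 0.054 in Long Evans and 1.34 ± 0.053 in Sprague Dawley for each log2 unit of the marker mean. Kcne2 rose by 0.62 ± 0.037, 0.59 ± 0.038 and 0.69 ± 0.042, and Kcnq1 by 0.12 ± 0.019, 0.19 ± 0.021 and 0.12 ± 0.023. These 3 were the members called in each strain (adjusted p in limma at most 0.000885), beside 1.05%, 2.07% and 2.31% of all probe sets. Within the 6 combinations of strain and number set (19 or 20 animals each), Pearson's r with the marker mean was 0.958 to 0.993 for Kcnj13 and 0.922 to 0.969 for Kcne2, and Spearman's rho 0.931 to 0.988 and 0.923 to 0.979. Each of the 12 had a permutation p of 1e-05, the smallest that 100000 permutations can give, and the same after Benjamini-Hochberg adjustment. Without the 2 animals farthest from the median marker level, r was 0.960 to 0.991 and 0.908 to 0.984. With Ttr in place of the list, r was 0.879 to 0.957 and 0.754 to 0.885. Kcnj13 and Kcne2 were called in no strain, lead, dose, period or sex comparison. Their control differences between strains had an SE of 0.87 to 0.90 for Kcnj13 and 0.39 to 0.41 for Kcne2, against 0.060 or less for the first Kcnip1 probe set.

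**Figure D5:**
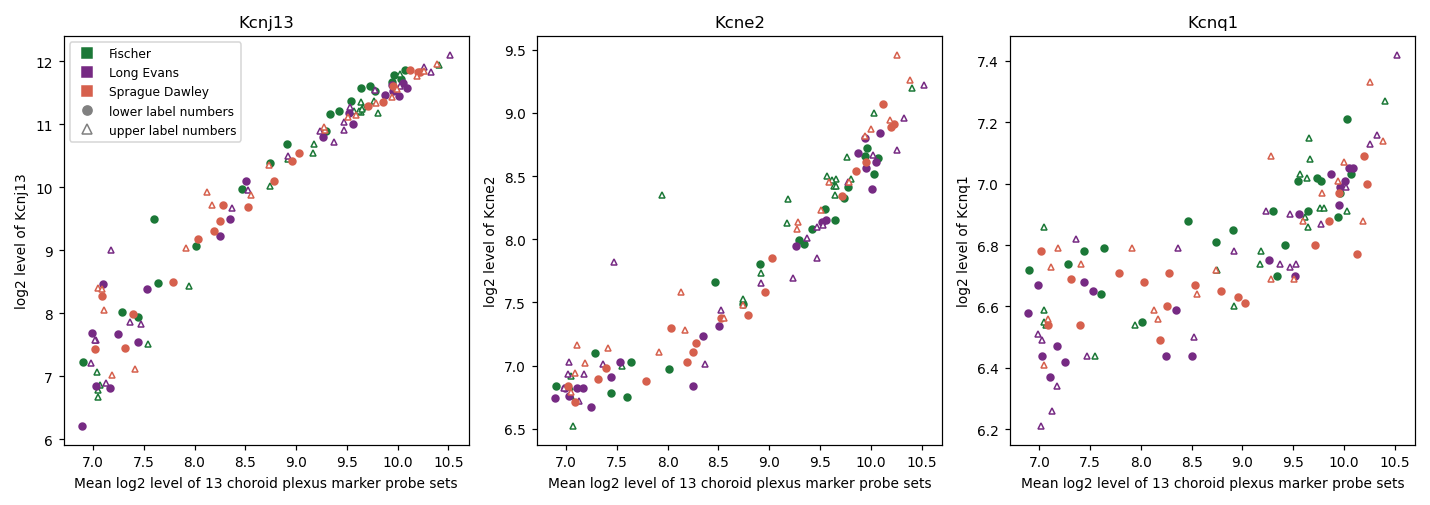
Log2 level of Kcnj13, Kcne2 and Kcnq1 (y axes) against the mean log2 level of 13 choroid plexus marker probe sets (x axis) in each animal; colour gives the strain, and filled circles and open triangles the lower and upper label numbers. Kcnj13 climbs from 6.21 to 12.10 along the marker level in all 3 strains, and Kcnq1 over a narrower range, 6.21 to 7.42.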

How the data were processed

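Hippocampal RNA was hybridised to Affymetrix Rat Gene 1.0 ST arrays. The deposited log2 values were made by the authors with RMA and Partek, per the submitters' processing notes; versions and settings are not given in the sources used here. They were used as deposited, with no further normalization or filter on dim probe sets. Of the 85 member probe sets 69 lay above the 40th percentile of mean level. Among those that did not were the second Kcnip1 probe set, Kcnk6, Kcnh8 and Kcnq1. Probe sets were named through the platform's probe-gene table. The number of arrays limits the precision.

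Lead, dose, period and sex contrasts were fitted with limma 3.58.1 (R 4.3.3) to the 10 groups of each strain, strain contrasts to all 30 groups, with p-values adjusted by Benjamini-Hochberg over 29214 probe sets and a threshold of 0.05. The code was tested on simulated data. Label numbers do not pair animals across groups. Named genes were a fixed set (Kcnip1, Kcnj13, Kcne2, Kcnj10, Kcna1, Kcna2, Kcnc1, Kcnd2, Kcnq3, Kcnk1 and Kcnma1) with, for strain pairs, up to 5 highest and 5 lowest members called in control and exposed animals with 1 sign in both and in each number set of the controls, up to 5 each for number sets and, for lead, called members or the 2 smallest p. Members, lists and rules were chosen with earlier results of these data known. Splits by dose or period, the strain difference of the period contrast and the slope on choroid plexus markers were added after seeing the data. Promoter windows are from RefSeq (GRCr8). Correlations used 100000 permutations. Figures were drawn with matplotlib 3.10.9.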

Additional observations from a re-analysis of the deposited data

Results flagged for a closer look

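Dixon's criterion was applied to 5 probe sets, those of Kcnip1, Kcnj13, Kcne2 and Kcnj16, in each group of 4, which made 145 combinations. In 15 of them 1 animal lay apart from the other 3. Chance gives about 1 in 20, but probe sets that vary together are not independent. For Kcnj16 these were 8.45 in a Fischer male with postnatal 250 ppm (others 8.23 to 8.26), 8.34 in a Long Evans female with perinatal 750 ppm (others 8.04 to 8.06) and 7.77 in a Sprague Dawley female with postnatal 750 ppm (others 7.92 to 7.95). For Kcnip1 on probe set 10741956 they were 10.15 in a Long Evans female control (others 10.22 to 10.23) and 10.28 in a Long Evans female with postnatal 750 ppm (others 9.83 to 9.90). On probe set 10940482 Kcnip1 was at 6.15 in a Long Evans female with perinatal 750 ppm (others 6.36 to 6.38) and 6.47 in a Sprague Dawley female with postnatal 750 ppm (others 6.34 to 6.36).

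Kcnj13 and Kcne2 each had an animal apart in 4 groups, of which 1 was shared. Kcnj13 was at 7.07 in a Fischer male with perinatal 750 ppm (others 11.24 to 11.86), where the same animal had Kcne2 at 6.83 (others 8.41 to 8.64). Kcnj13 was at 6.21 in a Long Evans female control (others 11.04 to 11.44), at 6.89 in a Long Evans male with postnatal 750 ppm (others 11.01 to 11.60) and at 9.30 in a Sprague Dawley female with perinatal 250 ppm (others 11.56 to 11.95). Kcne2 was at 7.49 in a Fischer female control (others 8.35 to 8.52), at 8.45 in a Long Evans male with perinatal 250 ppm (others 6.84 to 7.03) and at 9.07 in a Sprague Dawley female with postnatal 750 ppm (others 7.11 to 7.16). The Long Evans female control at 6.21 was also the one with Kcnip1 at 10.15. The Sprague Dawley female at 9.07 was also the one with Kcnip1 at 6.47. Both of these arrays were sex-mismatched.

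The Kcnip1 difference between postnatal and perinatal exposure was 0.267 higher in Sprague Dawley than in Long Evans on probe set 10741956, by a test of that difference itself (adjusted p in limma 0.0182). This test was added after the data were seen. It made no call with the choroid plexus covariate or in upper numbers only (adjusted p in limma 0.221 and 0.635).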

How the results depend on the processing

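Without the 8 arrays against their sex label, 17 members were called between Long Evans and Fischer controls and 6 between Sprague Dawley and Long Evans controls. With lower label numbers only, 11 were called between Long Evans and Fischer controls and 31 between exposed animals of these strains. With upper numbers only, 6 were called between Sprague Dawley and Long Evans controls. These settings hold fewer animals. For them and for the settings below, the share of all probe sets called is not given here. In lower numbers only, the exposed Sprague Dawley and Fischer difference turned to -0.017 for Kcnk6 and 0.073 for Kcnip4; the cause was not tested. For the strain difference in the period effect, 2 members were called with array weights, 0 with the choroid plexus covariate and 0 in upper numbers only. Array weights called 3 members in the Sprague Dawley lead contrasts: both Kcnip1 probe sets in males with perinatal 250 ppm (adjusted p in limma 0.0264 and 0.00905) and Kcng3 in males with postnatal 750 ppm (0.0198). In 1 fit of all arrays, 1 member, Kcnh3, was called for the Long Evans period (0.142, adjusted p in limma 0.0487). Above the 40th percentile of mean level, 1 member each was called for the Sprague Dawley period at 250 ppm and for the perinatal dose, because this filter removes the second Kcnip1 probe set. The cause of the other changes was not tested.

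Leaving out each animal in turn gave 9 to 15 calls between Sprague Dawley and Long Evans controls, 0 to 1 for the strain difference in the lead effect of that pair, 0 to 1 in the Long Evans lead contrasts and 1 to 2 for the Sprague Dawley perinatal dose. With label numbers as a block, 168 of 168 named results kept their direction and their side of the threshold. Each group but Sprague Dawley male controls held as many animals with lower as with upper numbers. Differences between such groups cannot change with this block, so their kept direction is no test. With lower numbers only, 46 named results kept both, 19 lost their call and 2 reversed. With upper numbers only, 57 kept both and 10 lost their call.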

Other observations

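Kcnh6, an ERG channel singled out after its values were seen, had an animal far above the others in each of 2 groups. Fischer males with postnatal 750 ppm were at 6.75, 6.80, 6.72 and 9.09, and Long Evans male controls at 6.77, 6.87, 7.07 and 8.74. The array at 8.74 was among those that went against their sex label.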
